A study of Homo sapiens with 16 samples.

Results

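The 39 human HOX genes were described in H9 cells, an established line of human embryonic stem cells, during differentiation towards cortical neurons. A gene was taken as a member when its symbol was HOXA, HOXB, HOXC or HOXD followed by a number and nothing after it, which gave 39 of the 57736 genes in the deposited table. RNA was sequenced from undifferentiated cells (D0) and after 12, 30 and 70 days of differentiation (D12, D30 and D70). At each stage 2 libraries came from cultures given 40 µM Thiamet-G (TMG), an inhibitor of the enzyme that removes O-GlcNAc from proteins, and 2 from control cultures given DMSO, so 8 groups of 2 libraries made 16. All groups shared the H9 line and the dual SMAD inhibition protocol, in which BMP and TGF-beta signalling are blocked to turn stem cells into neural cells. Every value therefore comes from 1 cell line.

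HOX genes encode homeodomain transcription factors that give cells their position along the head-to-tail axis. They lie in 4 clusters, and within a cluster the genes with low numbers are switched on earlier and closer to the head than those with high numbers. The forebrain of the embryo forms in front of the HOX domain, the hindbrain uses the low-numbered genes, the trunk and spinal cord the middle ones, and the tail end, limbs and genital tract the high-numbered ones. Connective tissue cells of the adult body also keep the HOX code of the place they came from.

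On GRCh37 the HOXA cluster held 11 members on chromosome 7 (chr7:27132612-27239710, 107.1 kb), HOXB 10 on chromosome 17 (chr17:46605888-46806112, 200.2 kb), HOXC 9 on chromosome 12 (chr12:54332615-54449814, 117.2 kb) and HOXD 9 on chromosome 2 (chr2:176957449-177055635, 98.2 kb). Several members overlap in the annotation. The longest transcript span of HOXB3 covers HOXB4, HOXB5 and part of HOXB6, that of HOXA3 covers HOXA4, HOXA5 and HOXA6, and HOXC4, HOXC5, HOXC6, HOXC8 and HOXC9 share spans in the same way. HOXA9 overlaps HOXA10, HOXB7 overlaps HOXB8 and HOXB9, HOXD3 overlaps HOXD4, and HOXD10 overlaps HOXD11. Reads in such stretches were divided between genes by the counting program, so the split among these neighbours is uncertain. The library kit is not named as strand-specific in the methods, so reads from a HOX gene and from its antisense partner may not be told apart either.

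Library totals ranged from 10334908 to 19836878 counts, so that 3 counts, taken as the floor of detection, were worth between 0.147 and 0.291 CPM (counts per 1000000, with library sizes normalized). Libraries were grouped by their titles, since a separate treatment tag of 8 of the 16 libraries names the other arm. The 5 stem cell markers summed to between 2490 and 2840 CPM on D0 and to at most 3.97 CPM on D70. The D70 libraries did not resemble each other within an arm. Summed over 6 pan-neuronal genes (TUBB3, STMN2, DCX, MAP2, ELAVL3 and ELAVL4), control replicates 1 and 2 had 1130 and 490 CPM and TMG replicates 1 and 2 had 1120 and 196 CPM. FEZF2, a factor of the forebrain, had 323, 223, 208 and 0 counts in the same order, so this marker was at 0 in D70 TMG replicate 2. On D30, TMG replicate 2 stood apart from the other 3 libraries with 30300 CPM of mesenchyme genes against 4560 to 5730 CPM. The counts of members past the threshold between D0 and D70 are given with and without single libraries.

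HOX transcripts were rare before D70 and their amount on D70 differed more between replicate numbers than between TMG and control. All 39 members together had 2586 counts, of which 2228 (86.2%) came from the 4 libraries of D70 and 1881 (72.7%) from the D70 libraries numbered 2. In control replicates 1 and 2 of D70 the members summed to 20.6 and 60.2 CPM, and in TMG replicates 1 and 2 to 2.13 and 104 CPM. In the 12 earlier libraries the sum lay between 0.109 and 5.66 CPM. The lowest and the highest D70 libraries were thus both TMG-treated, with the controls between them. RNA was taken from whole cultures, so fewer cells with HOX transcripts and less HOX RNA per cell cannot be told apart.

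**Figure D1:**
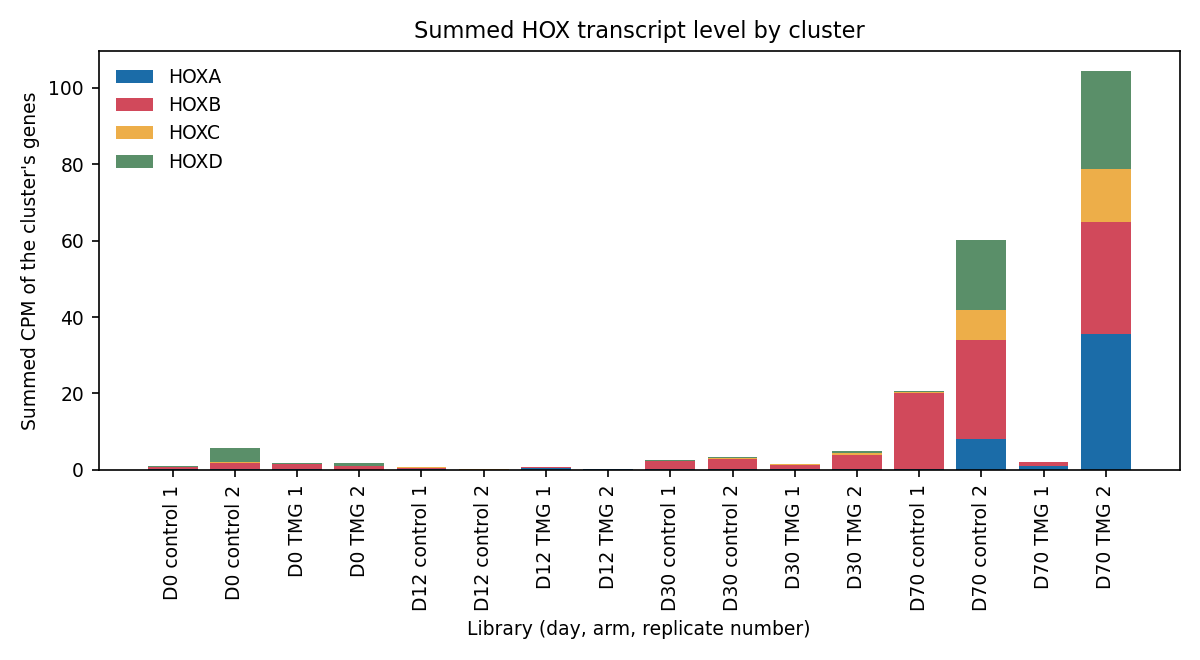
Bars give the summed CPM of the HOX genes in each of the 16 libraries, split by cluster; the horizontal axis lists day, arm and replicate number. Only D70 control 1 (20.6 CPM), D70 control 2 (60.2 CPM) and D70 TMG 2 (104 CPM) rise above 5.66 CPM, and the first of them is almost wholly HOXB.

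Of the 39 members, 19 passed the filter on low counts and were tested, and 20 did not. A mean of 1 CPM in at least 1 group was reached by 19 members (among them HOXA2, HOXA3, HOXA10, HOXA11, HOXB2 to HOXB6, HOXB13, HOXC4, HOXC6, HOXC13, HOXD1, HOXD3, HOXD4, HOXD8 and HOXD9). HOXC12 had no count in any library, and HOXA6, HOXD12, HOXC10, HOXD11, HOXA13 and HOXC11 had between 2 and 6 counts in all 16 together. The highest count of 32 members was in a D70 library numbered 2, for 21 of them in TMG replicate 2 and for 11 in control replicate 2. Exceptions were HOXB5, highest in D70 control replicate 1, HOXB1, HOXD1 and HOXD12, highest on D0, HOXB13, highest on D30, and HOXD13, with 5 counts both in D0 control replicate 2 and in D70 control replicate 2.

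**Figure D2:**
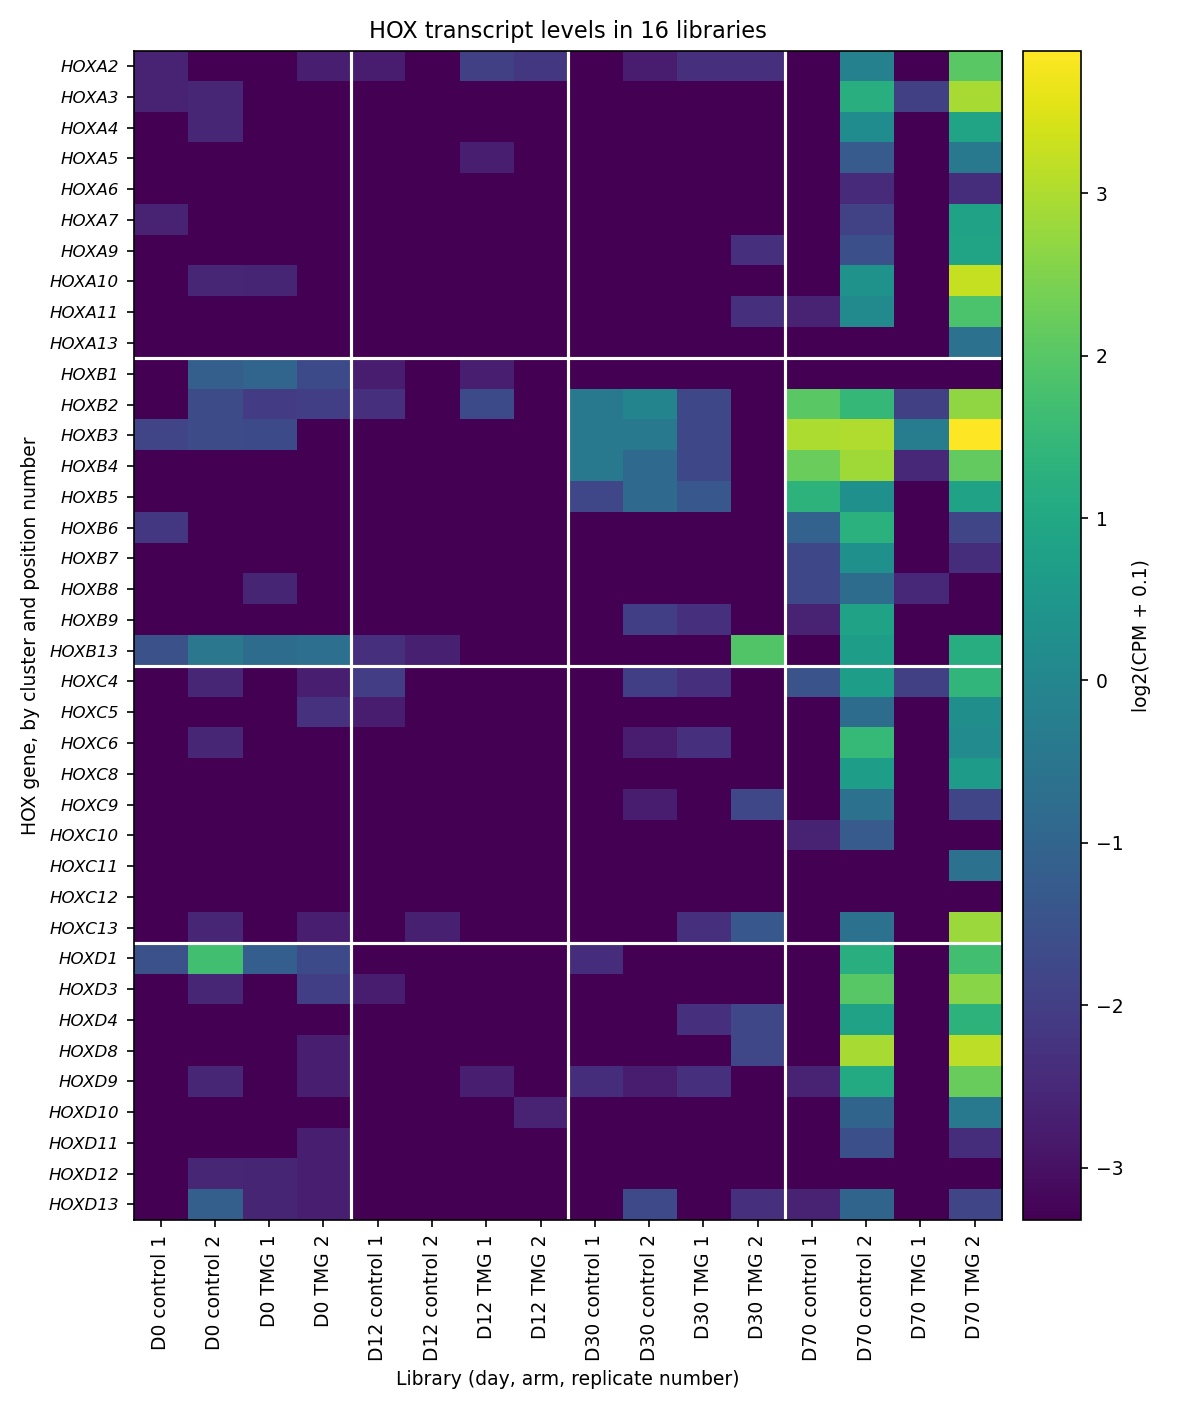
Colour gives log2(CPM + 0.1) of the HOX genes reported here (rows, by cluster and position number) in each library (columns, by day, arm and replicate number). The bright cells lie in the columns D70 control 2 and D70 TMG 2 across all 4 clusters, while D70 control 1 is bright mainly from HOXB2 to HOXB5.

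Promoter sequence was read for members higher in the D70 libraries numbered 2 and for those with a motif of HOX binding. The table of RefSeq promoters (250 bases before to 50 after a start, GRCh38.p14) held 27 entries for 20 of the 39 members, and HOXC4 and HOXC5 shared the same 300 bases, which leaves 26. Every one matched GRCh37 at 1 place. HOXA10 and HOXD8, the posterior HOXA gene and the HOXD gene with the most counts in D70 TMG replicate 2, are shown with HOXA2 and HOXB1, which have the composite motif that PBX and HOX proteins bind. The HOXA10 window shown (chr7:27219431-27219730, minus strand) lies inside the span of HOXA10. HOXA10 has another window with TATAAA (chr7:27213890-27214189, minus strand), and the counts do not tell the promoters apart. The HOXD8 window (chr2:176994183-176994482, plus strand), the HOXA2 window (chr7:27142253-27142552, minus strand) and the HOXB1 window (chr17:46608324-46608623, minus strand) span the annotated starts of their genes. Capitals mark TATAAA in HOXA10, TTTATG in HOXD8 and TGATNNAT in HOXA2 and HOXB1, each found on either strand.
HOXA10: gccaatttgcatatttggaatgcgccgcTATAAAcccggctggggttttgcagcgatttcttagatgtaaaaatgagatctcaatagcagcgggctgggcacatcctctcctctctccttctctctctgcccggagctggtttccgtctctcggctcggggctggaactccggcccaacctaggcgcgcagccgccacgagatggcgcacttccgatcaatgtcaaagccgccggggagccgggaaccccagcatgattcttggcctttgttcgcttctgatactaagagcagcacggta
HOXD8: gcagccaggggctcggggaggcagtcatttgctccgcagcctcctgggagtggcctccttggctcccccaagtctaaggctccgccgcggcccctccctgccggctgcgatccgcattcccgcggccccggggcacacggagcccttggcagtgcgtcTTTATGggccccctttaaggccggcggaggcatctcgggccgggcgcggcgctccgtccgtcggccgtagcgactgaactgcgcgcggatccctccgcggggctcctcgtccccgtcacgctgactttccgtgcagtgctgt
HOXA2: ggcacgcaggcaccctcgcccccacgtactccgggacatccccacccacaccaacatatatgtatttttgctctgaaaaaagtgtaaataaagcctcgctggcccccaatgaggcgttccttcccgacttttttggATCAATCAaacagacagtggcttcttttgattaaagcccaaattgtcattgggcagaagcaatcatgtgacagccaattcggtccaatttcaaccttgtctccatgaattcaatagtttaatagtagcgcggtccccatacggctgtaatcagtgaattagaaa
HOXB1: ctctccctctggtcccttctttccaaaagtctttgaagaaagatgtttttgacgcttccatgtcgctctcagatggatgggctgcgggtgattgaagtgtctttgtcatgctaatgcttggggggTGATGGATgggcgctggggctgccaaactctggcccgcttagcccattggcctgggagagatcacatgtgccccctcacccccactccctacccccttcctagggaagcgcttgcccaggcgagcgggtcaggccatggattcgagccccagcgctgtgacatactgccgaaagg

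TGATNNAT, the composite motif, was found in 3 of the 26 HOX promoters (HOXA2, HOXB1 and HOXD11) and in 7.42% of the 34796 distinct promoters of the table. TTTATG, bound by caudal factors, was found in 3 (HOXD8, HOXA3 and HOXA9) and in 10.6% of all. TATAAA was found in 5 and in 11.6% of all, and AGGTCA, the half-site of retinoic acid receptors, in none and in 13.8% of all. Both strands were searched, no 2 different motifs overlapped in a HOX promoter, and in the HOXD13 window TATAAA overlaps its own reverse complement. Of the genes shown, HOXD8 was high in both D70 libraries numbered 2. HOXA10 and HOXA2 had 101 of 116 and 43 of 53 counts of these libraries in TMG replicate 2. HOXB1 had no count in either, and the composite motif was in the promoter of HOXA2 and of HOXB1. The HOX promoters held a median of 22.5 CpG dinucleotides, with a range of 0 to 44, where the median of all promoters was 14.

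In undifferentiated cells most of the few HOX counts belonged to genes at the ends of the clusters. HOXB1, which gives identity to a segment of the hindbrain, had 0, 5, 6 and 4 counts on D0 (control 1, control 2, TMG 1, TMG 2), 1 count in each of 2 D12 libraries and none on D30 or D70. It was thus the member with counts on D0 that had none on D70, besides HOXD12 with 3 counts in all. HOXD1, at the early end of its cluster, had 4, 45, 5 and 4 counts, or 0.247, 3.14, 0.343 and 0.206 CPM. The value of control replicate 2 lies apart from the other 3, and the same library also had the highest D0 sums of midbrain and anterior hindbrain markers (131 CPM against 35.8 to 89.3) and of hindbrain and cord markers (111 CPM against 22.8 to 36.7), whose part in the HOXD1 level was not tested. HOXB13, best known from the prostate and the tail end of the embryo, had 4, 9, 7 and 10 counts on D0. It was the posterior gene with the most counts in stem cells. HOXB3 had 3, 3, 3 and 0 counts and HOXB2 0, 3, 2 and 3, all at or under the floor.

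At the neural progenitor stage, D12, the HOX sum was lowest, with 17 and 2 counts in the controls and 16 and 3 in the TMG libraries. HOXB13 had 2 and 1 counts in the controls and none in TMG, HOXB3 to HOXB5 had none in any D12 library, and HOXB2, HOXC4 and HOXA2 had at most 4.

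On D30 the counts of HOXB2, HOXB3 and HOXB4 separated the arms, at a low level. HOXB2 had 7 and 17 counts in the controls and 2 and 0 in the TMG libraries, or 0.657 and 0.852 CPM against 0.194 and 0 CPM. HOXB3 had 7 and 13 counts against 2 and 0, and HOXB4 7 and 9 against 2 and 0. Of the 39 members 4, these 3 genes among them, were higher in both controls than in both TMG libraries. Across all genes with a count, 15.3% behaved in that way, so 4 of 39 members is not above the background. HOXB5 had 2 and 9 counts against 3 and 0, and its groups overlapped. In the other direction, HOXA2, HOXC13 and HOXD4 were higher in both TMG libraries, with at most 3 counts each, where 16.5% of all genes were. HOXB13 had 39 counts (3.69 CPM) in D30 TMG replicate 2 and none in the other 3 libraries of that stage, so its D30 value rests on the library with the high mesenchyme sum.

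**Figure D3:**
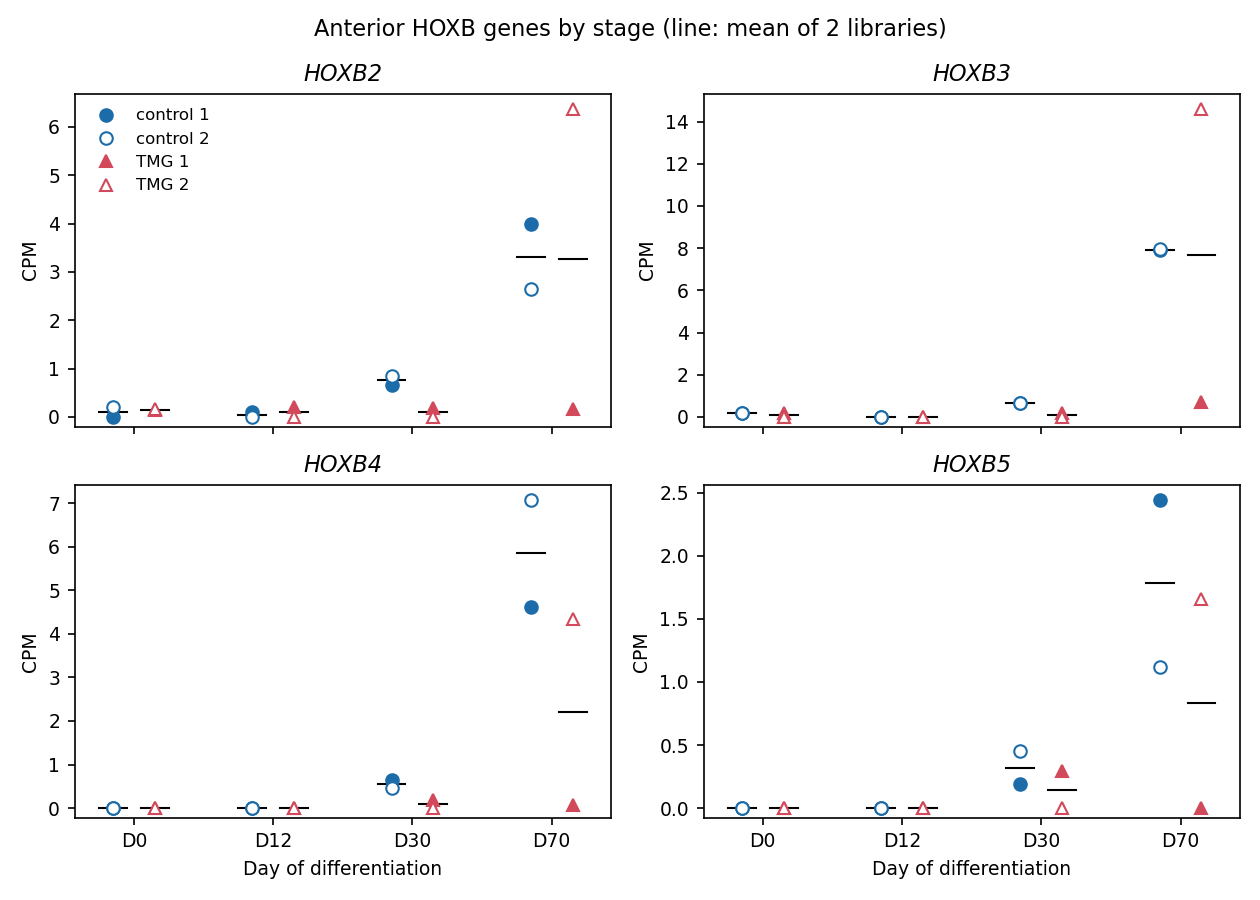
Points give the CPM of HOXB2, HOXB3, HOXB4 and HOXB5 by day, filled for replicate 1 and open for replicate 2, with lines at the mean of 2 libraries. Both control points lie above both TMG points for HOXB2, HOXB3 and HOXB4 on D30, and on D70 the TMG points stand at both ends for HOXB2 and HOXB3.

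On D70 HOXB3 had the most counts of all members, followed by HOXB4, HOXD8 and HOXB2. HOXB3, active in the hindbrain and the pharyngeal region, had 123, 99, 9 and 158 counts (control 1, control 2, TMG 1, TMG 2), or 7.90, 7.95, 0.710 and 14.6 CPM. HOXB2, a hindbrain gene, stood at 3.98, 2.65, 0.158 and 6.37 CPM, and before D30 it had at most 4 counts. HOXB4, known also from blood stem cells, stood at 4.62, 7.07, 0.0789 and 4.34 CPM and had no count on D0 or D12. HOXB5, expressed from the hindbrain to the trunk, stood at 2.44, 1.12, 0 and 1.66 CPM and likewise had none on D0 or D12. For these 4 genes TMG replicate 1 lay far below the other D70 libraries, and HOXB2 and HOXB3 were highest in TMG replicate 2. HOXB6 to HOXB9 were highest in control replicate 2. HOXB6 stood at 0.385, 2.33, 0 and 0.185 CPM after 2 counts in D0 control replicate 1, HOXB7 had 3, 14, 0 and 1 counts, HOXB8 3, 6, 1 and 0, and HOXB9, a trunk gene, 1, 21, 0 and 0. HOXB13, at the far end of the cluster, had 0, 19, 0 and 23 counts.

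The HOXA genes described here had at most 2 counts in either library numbered 1 and most were highest in TMG replicate 2. HOXA2, which patterns the hindbrain and the neural crest of the jaw and ear, stood at 0, 0.803, 0 and 3.97 CPM, after 0 to 3 counts in each earlier library. HOXA3, needed for the thymus and parathyroid, stood at 0, 2.17, 0.158 and 7.57 CPM, with 1 count in each D0 control before. Among the posterior genes, HOXA10, which acts in the lumbar region and the uterus, stood at 0, 1.2, 0 and 9.33 CPM (0, 15, 0 and 101 counts) after 1 count in each of 2 D0 libraries. HOXA11, a limb and genital tract gene, stood at 0.0642, 0.964, 0 and 3.51 CPM after 1 count in D30 TMG replicate 2. HOXA4 had 0, 13, 0 and 19 counts, HOXA5 0, 4, 0 and 7, HOXA7 0, 2, 0 and 18, and HOXA9 0, 3, 0 and 19. HOXA13, the last gene of the cluster, had 6 counts in TMG replicate 2 alone.

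The HOXC and HOXD genes were likewise found in the libraries numbered 2. HOXC4 stood at 0.257, 1.53, 0.158 and 2.59 CPM after at most 3 counts in an earlier library. HOXC6, a trunk gene at the level of the forelimb, stood at 0, 2.73, 0 and 1.02 CPM after 1 count in each of 3 earlier libraries. HOXC8, which acts in brachial motor neurons and ribs, had 0, 19, 0 and 16 counts, and none before D70. HOXC13, known from hair and nails, stood at 0, 0.562, 0 and 6.83 CPM (0, 7, 0 and 74 counts), so its mean in TMG rests on 1 library. HOXC5 had 0, 6, 0 and 12 counts, HOXC9 0, 7, 0 and 2, HOXC10 1, 4, 0 and 0, and HOXC11 6 counts in TMG replicate 2 alone.

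HOXD8 was the most abundant HOXD gene, with 0, 94, 0 and 96 counts, or 0, 7.55, 0 and 8.86 CPM, against 1 count on D0 and 2 on D30 in all. HOXD3, which acts in the neck vertebrae, stood at 0, 3.94, 0 and 5.91 CPM after at most 3 counts in an earlier library, and HOXD4 at 0, 1.69, 0 and 2.40 CPM after at most 2. HOXD9, a gene of the trunk and proximal limb, stood at 0.0642, 2.01, 0 and 4.52 CPM after at most 1 count, and HOXD1 at 0, 2.25, 0 and 3.14 CPM. These 5 genes were found in both libraries numbered 2, somewhat higher in TMG, and had together 1 count in those numbered 1. HOXD10 had 0, 5, 0 and 7 counts, HOXD11 0, 3, 0 and 1, HOXD13 1, 5, 0 and 2, and HOXD12 none.

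Counted over the members, 26 of 39 were higher in both D70 libraries numbered 2 than in both numbered 1, and none was lower. Of all genes with a count, 21.7% were higher in that way. This split follows the replicate number and not the treatment. Both controls were above both TMG libraries for 6 members (HOXB4, HOXB6, HOXB7, HOXB8, HOXB9 and HOXC10), where 9.74% of all genes were, and no member was higher in both TMG libraries, where 7.76% were. Of the 6, all but HOXB4 had at most 2 counts in any TMG library.

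Where along the clusters the counts fell also differed between the D70 libraries. Of the 320 HOX counts of control replicate 1, 94.7% belonged to the genes numbered 1 to 5 (95% exact Clopper-Pearson interval 91.6% to 96.9%), 3.75% to those numbered 6 to 8 and 1.56% (0.509% to 3.61%) to those numbered 9 to 13. In control replicate 2, with 750 counts, the shares were 56.7% (53.0% to 60.2%), 26.5% (23.4% to 29.8%) and 16.8% (14.2% to 19.7%). TMG replicate 1 had 27 counts, of which 26 were from genes numbered 1 to 5 and none from those numbered 9 to 13 (interval 0 to 12.8%). In TMG replicate 2, with 1131 counts, the shares were 58.2% (55.2% to 61.1%), 12.8% (10.9% to 14.9%) and 29.0% (26.4% to 31.7%). The intervals cover counting error only. Control replicate 1 thus held a nearly pure anterior HOX signal, and in both libraries numbered 2 over 40% of the signal came from middle and posterior genes, more from the middle in the control and more from the posterior in TMG.

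By cluster, HOXB gave 96.2% (93.5% to 98.0%) of the HOX counts in control replicate 1, 43.1% (39.5% to 46.7%) in control replicate 2 and 28.1% (25.5% to 30.8%) in TMG replicate 2. HOXA gave 1.56%, 13.5% and 34.0% in the same libraries. HOXD gave 0.625%, 30.7% and 24.7%. In TMG replicate 1, with 27 HOX counts, HOXB gave 48.1% (28.7% to 68.1%), HOXA 44.4% (25.5% to 64.7%) and HOXD none. The HOXB level was 19.8, 25.9, 1.03 and 29.4 CPM in control 1, control 2, TMG 1 and TMG 2, and the HOXA level 0.321, 8.11, 0.947 and 35.5 CPM.

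**Figure D4:**
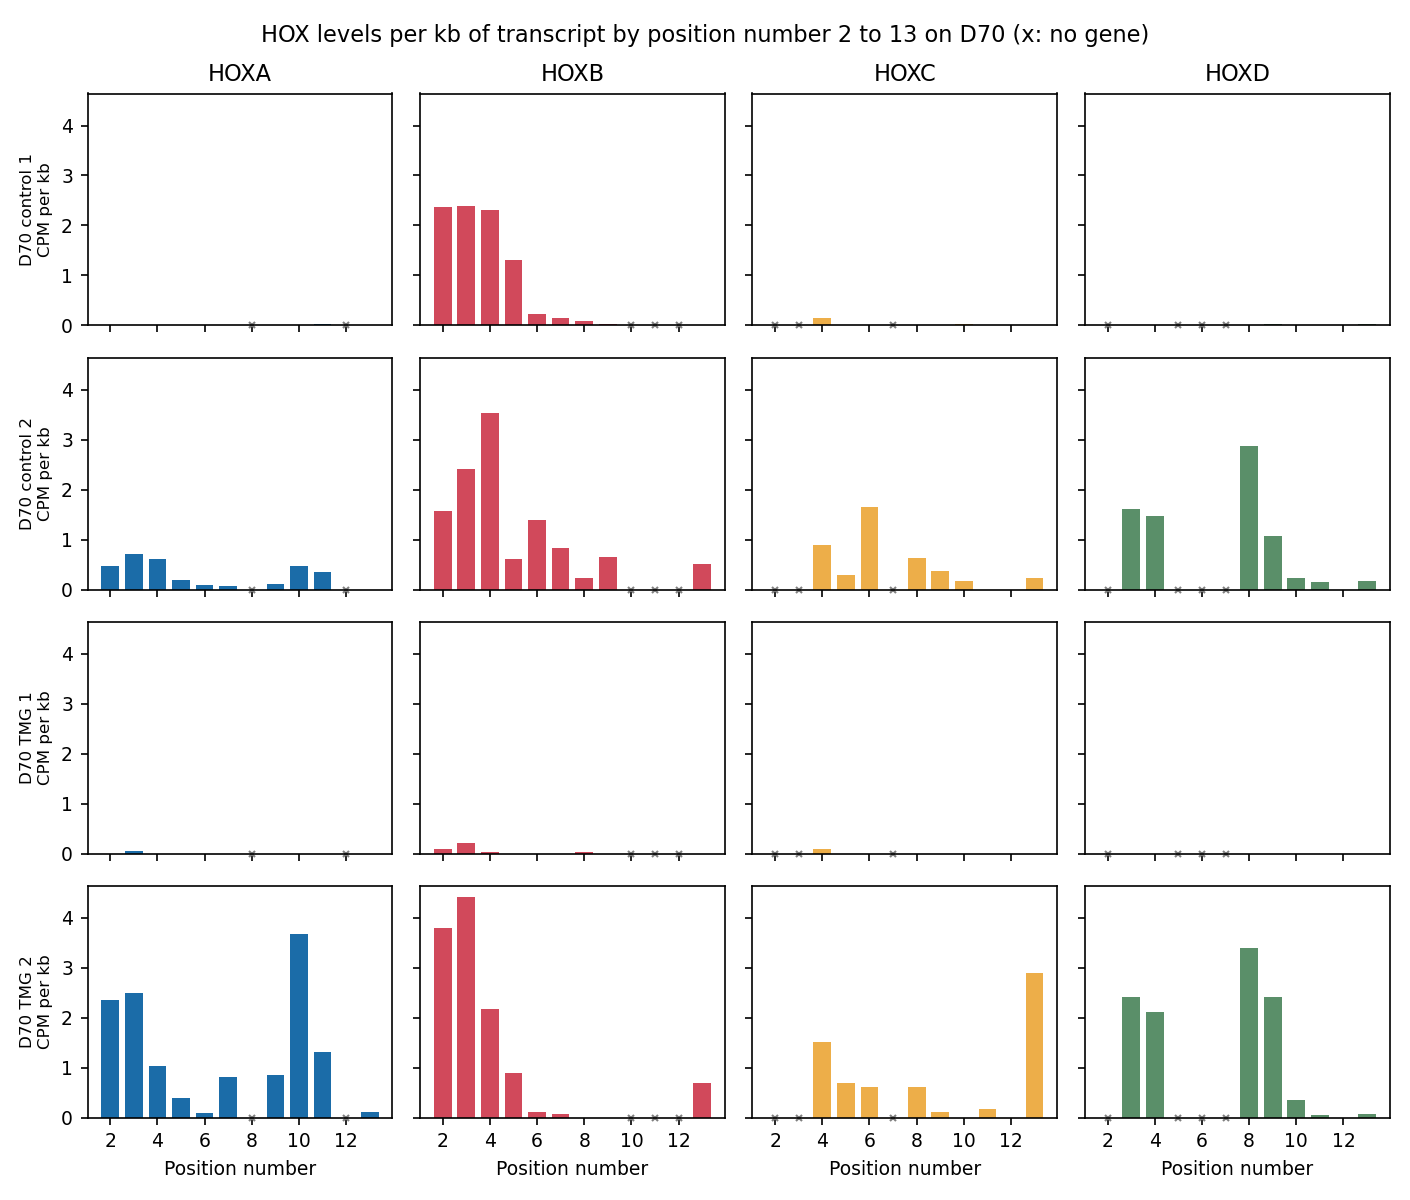
Bars give CPM per kb of the canonical transcript against the position number of the gene, from 2 to 13, for each cluster (columns) in each D70 library (rows), and x marks a number that the cluster lacks. In D70 control 1 the bars run from HOXB2 to HOXB5, while D70 TMG 2 has separate peaks at HOXA10 (3.67 CPM per kb), HOXC13 (2.90) and HOXD8 (3.39).

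Levels were compared between genes as CPM per kb of canonical transcript. In control replicate 1 the order was HOXB3 at 2.39, HOXB2 at 2.37, HOXB4 at 2.31 and HOXB5 at 1.31 CPM per kb, followed by HOXB6 at 0.230. The counting intervals of the first 3 overlap. In control replicate 2 HOXB4 led at 3.53 CPM per kb, before HOXD8 at 2.88, HOXB3 at 2.41 and HOXC6 at 1.65. There the counting intervals of HOXB4 and HOXD8 overlap per kb. In TMG replicate 2 HOXB3 led at 4.42, before HOXB2 at 3.79, HOXA10 at 3.67, HOXD8 at 3.39 and HOXC13 at 2.90 CPM per kb. The counting intervals of HOXB3, HOXB2 and HOXA10 overlap per kb in that library. The level did not fall evenly along a cluster. HOXA5 and HOXA6 stood at 0.387 and 0.0934 CPM per kb in TMG replicate 2, between HOXA3 at 2.50 and HOXA10 at 3.67, and HOXC11 at 0.170 lay beside HOXC12 at 0 and HOXC13 at 2.90.

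In the test of TMG against control no member passed a false discovery rate of 5% at any stage by edgeR's quasi-likelihood test, and none by DESeq2. By edgeR 0.0% of the 24249 genes tested were called on each of D0, D12, D30 and D70, and 0.0% for the difference between the D70 and D30 effects. DESeq2, run on all 43143 genes with a count, called 0.0116%, 0.0255%, 1.37% and 0.121% of them on D0, D12, D30 and D70. At an unadjusted p under 0.05, 0, 0, 1 and 0 members were found on D0, D12, D30 and D70, against 1.26%, 2.48%, 12% and 5.49% of all genes tested. The 1 member was HOXB13 on D30 (edgeR, unadjusted p = 0.049, adjusted p = 0.415), with 1.84 CPM in TMG and no count in the controls, which makes it at least 8.54-fold higher against a floor of 3 counts a library. It rested on the 39 counts of 1 library, and without that library it had no count in either arm. A p above the threshold does not show that the arms were alike. Between the D70 libraries numbered 2, TMG was above control for 25 members and below for 11. Between those numbered 1 it was above for 2 and below for 13. Each side was 1 library, and D70 TMG replicate 1 held 27 HOX counts with 7 members detected. The share of all genes in each direction was not counted, so nothing is read from these numbers.

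Of the 19 tested members, 12 are numbered 1 to 5. From D0 to D70 HOXB2, HOXB3 and HOXB4 passed as higher in the controls. These are 3 of the 19 tested members, which is not above the 29.8% of all genes that passed in either direction. HOXB4 had 10 or more counts in D70 libraries alone, and HOXB2 and HOXB3 in D70 libraries and D30 control replicate 2. They thus passed the filter mainly through the stage where they were high, and the number called is not read as support. HOXB3 rose from 0.197 ± 0.0173 to 7.93 ± 0.0375 CPM (SD, n = 2), by 5.27 ± 1.44 on the log2 scale (SE, edgeR, adjusted p = 0.0251). HOXB2 rose from 0.105 ± 0.148 to 3.32 ± 0.941 CPM, by 4.94 ± 1.62 on the log2 scale (edgeR, adjusted p = 0.0412). Its D0 libraries held 3 counts, all in replicate 2, so the ratio of counts is 34.5 with a counting interval of 11.5 to 170.0. The fitted log2 difference of HOXB2 was 3.96 without D0 control replicate 1 and 8.66 without D0 control replicate 2, which leaves D0 with no count. Its size thus depended on which D0 library was kept, and the interval covers counting error only. HOXB4 rose from no count to 5.85 ± 1.73 CPM, at least 29.6-fold (edgeR, adjusted p = 0.0244). The rise of these genes was seen in both control libraries. Without D0 control replicate 1, D0 control replicate 2 or D70 control replicate 1, the fitted log2 difference of HOXB3 was 5.21, 5.36 or 5.28. That of HOXB4, fitted against a group with no count, was 9.46, 9.47 or 9.73. The HOXB3 difference thus stayed about as large in these fits. HOXB4 had no count in either D0 control library, so leaving 1 of them out could hardly change its fitted difference. Nothing is read from how little it moved. Fewer of all genes passed in these fits than with all libraries. No member passed without D0 control replicate 1, D0 control replicate 2 or D70 control replicate 1, and HOXB3 alone of 22 members tested passed without D70 control replicate 2, where 23.9% of all genes tested did and the D70 controls are 1 library. With both D70 libraries numbered 2 left out, 4 of 7 members tested passed, the 3 and HOXB5, where 33.9% of all genes tested did. Each D70 arm is then 1 library, assumed to vary like the other groups, and the filter then kept fewer members than with all libraries, so nothing is read from that share.

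In TMG 3 of the 19 tested members passed from D0 to D70, HOXB3 and HOXB4 among them, where 29.0% of all genes passed. The filter limits this number in the same way, and it is not read as support. HOXB3 rose from 0.103 ± 0.145 to 7.65 ± 9.81 CPM, by 6.25 ± 1.56 on the log2 scale (edgeR, adjusted p = 0.0182), a ratio of counts of 80.6 (27.1 to 395.0, counting error only). The fitted log2 difference of HOXB3 in TMG was 9.87 without D0 TMG replicate 1, which leaves D0 with no count, and 5.15 without D0 TMG replicate 2. It was 7.19 without D70 TMG replicate 1 and 2.85 without D70 TMG replicate 2, so that its size depended on each of the 4 libraries. HOXB4 rose from no count to 2.21 ± 3.01 CPM, at least 12.3-fold (edgeR, adjusted p = 0.0449), with 1 count in D70 TMG replicate 1 and 47 in replicate 2. The SD of both D70 means in TMG is larger than the mean, since TMG replicate 2 carried most of it. No member passed without D70 TMG replicate 2 or without either D0 TMG library, and 14 of 26 members tested passed without D70 TMG replicate 1, among them HOXA2, HOXA3, HOXA10, HOXA11, HOXC13 and HOXD9, where 25.5% of all genes tested did. The D70 TMG arm is then the 1 library with the most HOX counts, assumed to vary like the other groups. The filter then kept more members than with all libraries, so nothing is read from that share. In the fits in which no member passed, fewer of all genes passed as well than with all libraries. The number of members gained by D70 in TMG thus depended on which of the D70 libraries was kept.

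For the other steps no member passed by edgeR. From D0 to D12, 16.7% of all genes passed in the controls and 16.4% in TMG. At an unadjusted p under 0.05 no member was found in either arm, where 32.0% and 31.7% of all genes were, and none passed by DESeq2, where 12.6% and 12.5% did. From D12 to D30, 3.60% and 0.511% of all genes passed. At an unadjusted p under 0.05, 2 of 19 members were found in the controls and 1 in TMG, which is below the 20.4% and 15% of all genes. HOXB3 passed in the controls by DESeq2, where 5.69% of all genes did. From D30 to D70, 0.384% and 0.00825% of all genes passed. At an unadjusted p under 0.05, 2 of 19 members were found in the controls and 7 in TMG, where 18.4% and 11.0% of all genes were. HOXB3 passed in TMG by DESeq2, where 0.848% of all genes did. Without D70 TMG replicate 1, 3 of 26 members tested passed there by edgeR (HOXB2, HOXB3 and HOXB4), where 6.29% of all genes did, again with D70 TMG as 1 library and with nothing read from the share. Members that passed the filter mostly did so through the D70 libraries numbered 2, so counts over the 19 were bound to lean towards D70 and are not read as support.

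The cofactors that bind DNA together with HOX proteins were present throughout. All 9 PBX, MEIS and PKNOX genes had at least 10 counts in every library, and their sum lay between 480 and 748 CPM. MEIS1, MEIS2 and MEIS3, 3 of 9, rose from D0 to D70 in both arms by edgeR. Among all 24249 genes tested, 3649 rose in the controls and 3614 in TMG, and 29.8% and 29.0% passed in either direction. MEIS2 rose by 4.49 ± 0.68 on the log2 scale in the controls (edgeR, adjusted p = 0.00107) and by 4.97 ± 0.69 in TMG (adjusted p = 0.000703). MEIS1 stood at 56.4, 140, 9.55 and 70.1 CPM in the D70 libraries (control 1, control 2, TMG 1, TMG 2), lowest in the library with the fewest HOX counts. PBX3 fell by 0.74 ± 0.21 in the controls (adjusted p = 0.0231), and PBX3 in TMG and PBX2, PBX4, PKNOX1 and PKNOX2 in either arm did not pass.

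Of the genes that act upstream of HOX transcription, the caudal factors CDX1, CDX2 and CDX4 summed to at most 1.66 CPM in any library. Among 11 genes of retinoic acid synthesis, breakdown and reception, 10 were tested and the same 6 passed from D0 to D70 in both arms, where 29.8% of all genes in the controls and 29.0% in TMG did. ALDH1A1, which makes retinoic acid, rose by 6.64 ± 1.84 and 6.36 ± 1.79 on the log2 scale (adjusted p = 0.0211 and 0.0231, controls and TMG). The receptor gene RARB rose by 4.01 ± 0.66 and 3.77 ± 0.66 (adjusted p = 0.00166 and 0.00225), and RARA, the binding protein gene CRABP2 and CYP26B1 also rose. CYP26A1, whose enzyme breaks retinoic acid down, fell by 3.43 ± 0.60 and 2.17 ± 0.55 (adjusted p = 0.00225 and 0.0147). Summed, the retinoic acid genes stood at 439, 513, 463 and 320 CPM on D70 and did not follow the HOX sum. GBX2, of the 3 segmental regulators listed, fell by 9.15 ± 1.10 in the controls and by 9.45 ± 1.14 in TMG (adjusted p = 0.000327 and 0.000379), while EGR2 did not pass.

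The noncoding and antisense genes inside the clusters were highest in the same D70 libraries as the HOX genes. Their sum was 1.16, 13.1, 0.631 and 26.5 CPM on D70, and at most 1.19 CPM before. HOTAIRM1, a noncoding gene at the early end of HOXA, had 9, 52, 7 and 106 counts on D70, and it rose from D0 to D70 in TMG by 5.75 ± 1.56 on the log2 scale (edgeR, adjusted p = 0.0197). It was the only one of the 3 tested, of 18 listed, to pass there, and none passed in the controls. HAGLR, antisense to HOXD1 and HOXD3, had 0, 54, 0 and 86 counts, HOXA10-AS 0, 6, 0 and 23, and HOXC13-AS 0, 1, 0 and 11. HOTTIP and HOTAIR, at the posterior ends of HOXA and HOXC, had at most 2 counts in any library.

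Marker genes of other cell types differed between the D70 libraries, some of them together with the HOX sum. The 10 mesenchyme genes summed to 7730, 45600, 4070 and 59600 CPM on D70 (control 1, control 2, TMG 1, TMG 2), and all 10 had at least 10 counts in both libraries numbered 2 against 9 and 8 in those numbered 1. COL1A1 stood at 2400, 20300, 1870 and 27600 CPM and COL1A2 at 3630, 12700, 1020 and 16700 CPM. From D0 to D70, 8 of the 10 rose in both arms by edgeR, where 29.8% and 29.0% of all genes passed in either direction, COL1A1 by 7.45 ± 1.45 on the log2 scale in the controls and by 7.94 ± 1.48 in TMG (adjusted p = 0.0039 and 0.00321). The 9 forebrain genes summed to 416, 246, 417 and 21.2 CPM, with 9, 7, 8 and 2 of them at 10 counts or more, and FEZF2 and DMRTA2 had no count in TMG replicate 2. From D0 to D70, OTX1, EMX2 and DMRTA2 rose in the controls, and OTX1 in TMG. The 8 hindbrain and cord genes summed to 32.4, 93.6, 62.5 and 221 CPM, and none of the 5 tested passed from D0 to D70 in either arm. The 7 neural crest genes summed to 23.6, 124, 185 and 357 CPM and the 6 mesoderm genes to 6.81, 7.95, 20.9 and 12.8 CPM. The libraries with the most HOX counts were therefore those with the highest mesenchyme sum and the lowest forebrain and pan-neuronal sums, and the part of these cell types in the HOX levels was not tested. These sums did not go together in every library. D70 TMG replicate 1, with the lowest HOX sum of that day, had the highest mesoderm sum of D70. That mesoderm sum rested on 1 gene, since only 1 of the 6 had 10 counts or more there. The neural crest sum and the hindbrain and cord sum of D70 TMG replicate 1 were above those of D70 control replicate 1. D30 TMG replicate 2 had 30300 CPM of mesenchyme genes and 4.92 CPM of HOX, and D70 control replicate 1 had 7730 and 20.6 CPM with a forebrain sum as high as that of TMG replicate 1.

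**Figure D5:**
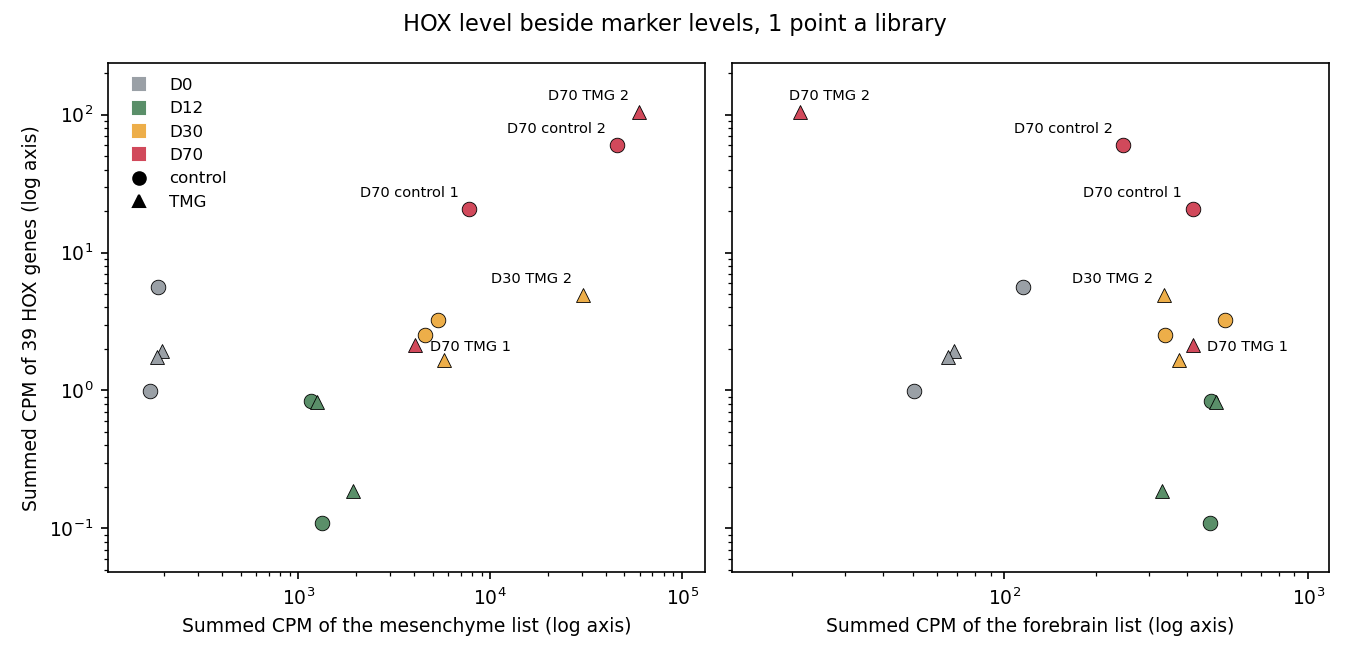
Each point is 1 library, with the summed CPM of the 39 HOX genes on the vertical log axis and the summed CPM of mesenchyme genes (left) or forebrain genes (right) on the horizontal log axis; colours give the day and shapes the arm. D70 control 2 and D70 TMG 2 lie at the upper right on the left panel, and D70 TMG 2 alone at the far left on the right panel.

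The genes outside the 39 whose level followed the summed HOX level most closely, by Pearson correlation of log2(CPM + 0.1) over the 16 libraries among genes tested, were F3, STOM, SH3YL1, PHEX, RIOX2, LINC01503, TRIB3, COL6A1, LINC01102 and PITPNM3, with r between 0.893 and 0.923. The 16 points share 4 stages and are not independent, and r is given as a description. F3, the gene of tissue factor, stood at 22.0, 22.6, 9.79 and 42.4 CPM on D70 and at 13.7 CPM or less before. TRIB3, a stress response gene, stood at 10.9, 108.0, 10.8 and 119.0 CPM, and COL6A1, a chain of a connective tissue collagen, at 522, 938, 448 and 933 CPM.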

How the data were processed

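RNA-seq of 16 libraries from H9 cells was analysed. Per the methods, the authors depleted ribosomal RNA, aligned reads to hg19 with Bowtie2 and deposited the estimated counts of RSEM 1.2.12 for 57736 Ensembl genes, not normalized and given as whole numbers by a rounding the sources used here do not describe. The methods call the 2 libraries of a group biological replicates.

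Counts were fitted with edgeR 4.0.16 (R 4.3.3) in 1 quasi-likelihood model of 8 groups, with TMM normalization, filterByExpr (minimum count 10, minimum total 15; 24249 genes kept), 8 residual degrees of freedom and Benjamini-Hochberg adjustment at 5%. The code was tested on simulated data. CPM used TMM-scaled totals. Gene spans and transcript lengths came from GENCODE on GRCh37. Intervals cover counting error only. Some genes are not reported here.

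Members and lists were chosen with earlier results of these data known. Members with a group mean of 1 CPM were given by library, and fold changes for at most 10 members past the threshold or, for TMG comparisons without any, at most 5 with an unadjusted p under 0.05. Listed genes were named where they passed or came first, and the 10 genes most like the HOX sum were added. Alternatives were DESeq2 1.42.0, RLE scaling, all genes unfiltered, a replicate block, fits of 1 stage, totals as deposited and each library left out.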

Additional observations from a re-analysis of the deposited data

How the results depend on the processing

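The counts of members past the threshold for TMG against control stayed at 0 under every alternative run: DESeq2, RLE normalization, no filter, the replicate block, the 4 libraries of D70 alone, each library left out and, chosen after seeing the data, both D70 libraries numbered 2 left out. The 4 libraries of D0, D12 or D30 alone gave no value, since no member passed the filter there. From D0 to D70 the controls had 3 members, 1 (HOXB7) with no filter, and 0 to 1 with a library left out. TMG had 3, 1 with no filter, 0 with both D70 libraries numbered 2 left out, and 0 to 14 with a library left out, 14 without D70 TMG replicate 1. From D30 to D70, HOXB3 was the 1 member called in TMG by DESeq2 and the 1 in the controls with both D70 libraries numbered 2 left out, and TMG had 0 to 3 with a library left out. From D12 to D30, DESeq2 called 1 in the controls, HOXB3. RLE normalization gave the same 3 members as TMM in each arm from D0 to D70. The cause of these shifts was not tested. On the deposited totals the summed HOX CPM was 18.0 in D70 control replicate 1 and 91.1 in D70 TMG replicate 2.

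With the replicate block edgeR called 160 genes higher and 73 lower in TMG on D30, and 1 higher on D70, none of them a HOX gene. With that block 3 members passed from D0 to D70 in the controls, the same genes. In TMG 4 passed, of which 2 were shared, and from D0 to D12 in TMG 1 did, HOXB13. Of all 24249 genes tested, 4977 were called higher and 4851 lower from D0 to D70 in the controls. In TMG 4687 were called higher and 4806 lower, and 3282 and 3733 from D0 to D12. The labels do not pair the replicate numbers, and with 2 libraries a group the differences between replicates correlated between arms at 0.0453, 0.367, 0.223 and 0.607 on D0, D12, D30 and D70. On D70 the libraries numbered 2 deviated together.

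The unadjusted p of HOXB13 on D30 lay between 0.00304 with the replicate block and 1.0 without D30 TMG replicate 2.

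Depth limits the members outside D70, most of which were at or under 3 counts.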

Other observations

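Genes beside the HOX clusters were looked at as a list of 14, of which 10 were tested. SKAP2, beside the early end of HOXA and a signalling adaptor of blood cells, had 17, 230, 18 and 512 counts on D70 (control 1, control 2, TMG 1, TMG 2), or 1.09, 18.5, 1.42 and 47.3 CPM, and between 10 and 89 counts before, so it was high in the same libraries as the HOXA genes. HIBADH, on the other side of that cluster, stood at 30.2, 23.0, 21.5 and 17.0 CPM. EVX1, the even-skipped homologue beyond HOXA13, was at 0 on D70 apart from 0.631 CPM in TMG replicate 1. Around HOXB, SKAP1 had at most 0.193 CPM on D70, and in TMG CBX1 fell from D0 to D70 by 0.64 ± 0.19 and TTLL6 by 4.63 ± 1.15 on the log2 scale (edgeR, adjusted p = 0.0311 and 0.0133). Around HOXC, HNRNPA1 fell from D0 to D70 by 1.15 ± 0.28 on the log2 scale in the controls and by 1.00 ± 0.27 in TMG (edgeR, adjusted p = 0.0106 and 0.0206). Beside HOXD, LNPK rose by 1.33 ± 0.30 and 1.21 ± 0.30 (adjusted p = 0.00801 and 0.0127), and EVX2 had at most 0.161 CPM on D70.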
